A study of Mus musculus with 281 samples.

Results

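Proteasome subunits and assembly factors were described in 281 single cells from mouse bone marrow. The genes were the rows of the deposited expression table whose symbol begins with Psm, followed by a letter from a to g and a number, and whose mean reached 1 TPM in at least 1 of the 6 cell type labels. TPM is a relative abundance: the share of a cell's transcripts that a gene takes, corrected for transcript length and scaled to the same total in each cell. The pattern matched 49 of the 43280 symbols, and 48 of them met the level. Psmb11, the catalytic subunit of the thymus proteasome, was listed at 0 in all 6 label means and was left out. The nearest genes above the threshold were Psma8 (highest label mean 7.16 TPM, in CMP cells), Psme4 (25.1 TPM, in proneu cells) and Psmd9 (26.6 TPM, in proneu cells).

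The proteasome is the protease that degrades ubiquitin-tagged proteins. Its core particle is a barrel of alpha rings, encoded by Psma genes, around beta rings, encoded by Psmb genes, and the catalytic sites lie on the beta subunits of Psmb5, Psmb6 and Psmb7. In cells exposed to interferon, and in many blood cells without it, these are exchanged for the immunoproteasome subunits of Psmb8, Psmb9 and Psmb10, which change the peptides that are cut for presentation on MHC class I. A regulatory particle of ATPase subunits (Psmc genes) and non-ATPase subunits (most Psmd genes) recognises, unfolds and feeds the substrate. Other caps are encoded by Psme genes, an inhibitor by Psmf1, and chaperones that assemble the core by Psmg genes.

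All cells came from C57BL/6 mice, an inbred laboratory strain; the labels name no allele, age, sex or animal, and no treatment. Progenitors without lineage markers (Lin-) that carried CD34 and c-Kit but not Sca-1 were sorted on the Fc receptors CD16/32 into CMP cells (low, 47 cells) and granulocyte-monocyte progenitors (high), and the latter on the monocyte protein Ly6C into Ly6C-GMP cells (45) and Ly6C+GMP cells (95 and 10 in separate title runs). The 22 proneu cells carried the Ly6C+GMP gate, except 1 with no gate label. The 31 preNeu cells were Lin- and had c-Kit, CXCR4, Gr1 and CD11b but neither SiglecF nor CD115, and the 31 tpMo cells were Lin- and had Ly6C, CXCR4 and CD115 but no c-Kit. The sources used here do not state whether proneu cells were picked by their own transcriptomes. Each sample is 1 cell and no animal is named, so each label counts as 1 sample: no test was made, and an SD here gives the spread among cells of a label.

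Of the marker lists, that of early progenitors summed highest in CMP cells (1447 TPM), and that of granulocyte-monocyte progenitors in proneu cells (112459 TPM), above Ly6C+GMP (76998 TPM) and Ly6C-GMP cells (54716 TPM). The summed level of 6 neutrophil precursor markers averaged 219159 TPM in preNeu cells and at most 1999 TPM in any other label, and that of 6 monocyte markers was highest in tpMo cells (4716 TPM). Markers of erythroid, megakaryocytic, B, T and NK, dendritic, eosinophil, basophil and mast cells and macrophages summed to at most 884 TPM in a label mean, with single cells far above it: up to 8843 TPM (erythroid) and 3343 TPM (megakaryocytic) in CMP cells, and 6938 TPM (basophil and mast) and 3099 TPM (eosinophil) in Ly6C-GMP cells. The part of such cells in the results was not tested. A gene counted as detected from 1 TPM, and the median cell held between 2373 (preNeu) and 4829 (Ly6C+GMP) such genes. In 1 Ly6C-GMP cell and 1 Ly6C+GMP cell the neutrophil precursor markers reached 69401 and 63197 TPM. Sample titles fall into 4 runs, called A, B, C and H here, whose meaning is not stated: A holds 95 Ly6C+GMP cells, B 31 CMP, 30 Ly6C-GMP and 1 proneu cell, H 16 CMP and 15 Ly6C-GMP cells, and C the other 10 Ly6C+GMP and 21 proneu cells with all preNeu and tpMo cells.

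The 48 genes together took between 0.671% (preNeu) and 1.68% (Ly6C-GMP) of a label's TPM. Their summed level was 15412 ± 3344 TPM in CMP cells (lowest cell 8054, median 15748, highest 22246). In Ly6C-GMP cells it was 16747 ± 2751 TPM (10668, 16277 and 21752). In Ly6C+GMP cells it was 15356 ± 2365 TPM (8638, 15412.5 and 20545). These 3 progenitor labels overlapped over most of their range. Proneu cells stood at 13828 ± 2122 TPM (11556, 13505 and 21179) and tpMo cells at 14793 ± 2404 TPM (11115, 14889 and 22867). In preNeu cells the sum was 6713 ± 1775 TPM (3708, 6563 and 9756). The highest preNeu cell lay below every Ly6C-GMP, proneu and tpMo cell, and above 2 of 47 CMP cells and 1 Ly6C+GMP cell.

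The preNeu value depends on how cells are scaled. In the median preNeu cell 47.1% of TPM fell to that cell's top 20 genes, while the medians elsewhere were 14.2% to 22.4%, and no proteasome gene was among the 20 most abundant genes of the whole table. As deposited, the preNeu sum was 0.485 times that of proneu cells. When the top 20 genes of the table and those of the mitochondrial genome were removed and TPM recomputed it was 0.615 times (11002 against 17884). When each cell was instead scaled by the median ratio of 547 genes found in at least 90% of cells, of which 12 are proteasome genes, the preNeu mean was 10504 and the proneu mean 11344, a ratio of 0.926, and the labels overlapped. On that scale the step from proneu to preNeu cells was smaller than the SD of either label (1715 and 2832). There tpMo cells had the highest mean (13096). Ly6C+GMP cells stood at 1.03 times Ly6C-GMP cells, against 0.917 times as deposited.

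**Figure D1:**
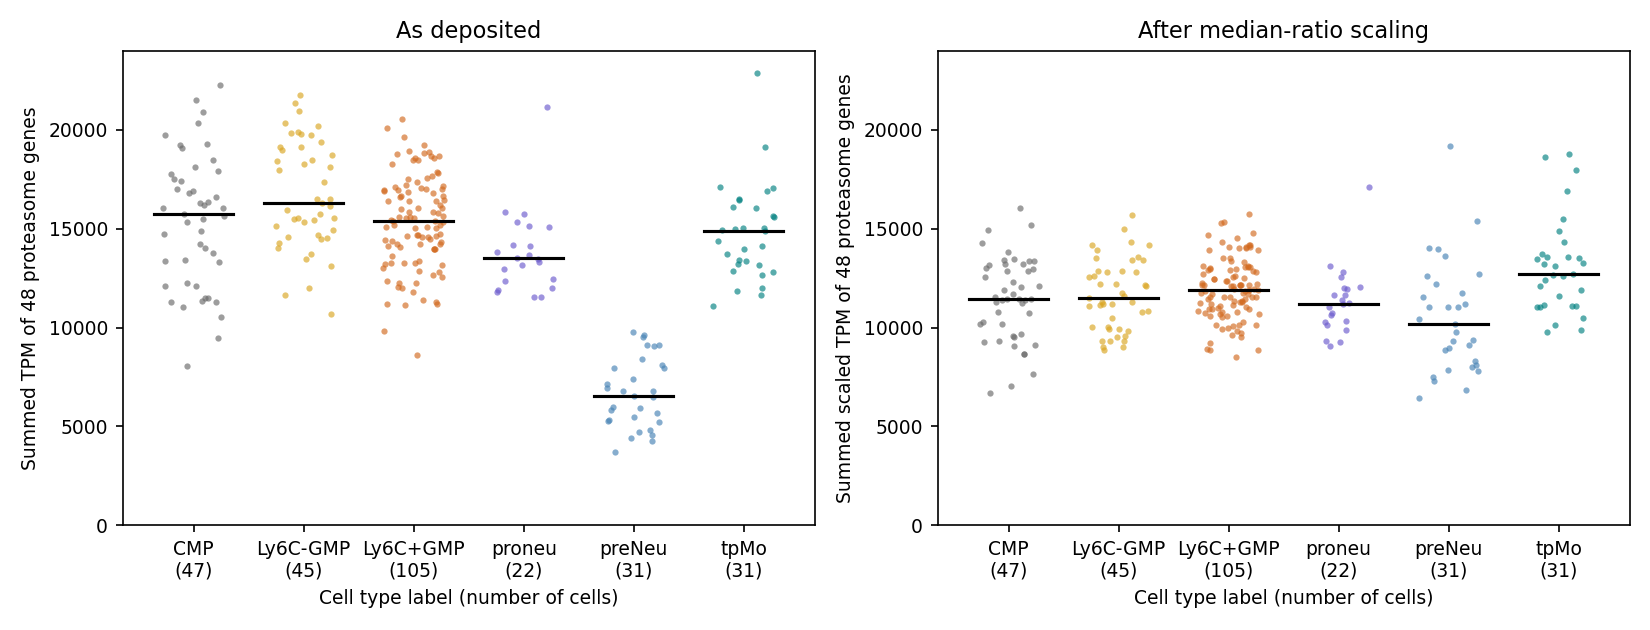
Summed level of 48 proteasome genes in each cell, as deposited TPM (left) and after median-ratio scaling (right), by label with the number of cells; points are cells and black lines medians. On the left the preNeu cells lie between 3708 and 9756 TPM, below all but 3 of the other cells; on the right they overlap every label.

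The 7 alpha subunits of the core ring were among the most abundant members. Psma7 had the highest average over labels (863 TPM): its mean was 1420 ± 673 TPM in tpMo cells, 1013 ± 579 TPM in Ly6C-GMP cells, 970.5 ± 675 TPM in CMP cells and 232 ± 216 TPM in preNeu cells. The tpMo mean of Psma7 was 1.63 times that of Ly6C+GMP cells. Psma4 had the lowest average of the alpha subunits (281.5 TPM), with 364 ± 294 TPM in Ly6C-GMP and 68.6 ± 200.5 TPM in preNeu cells, where 32.3% of cells had it. Psma6 had another order: it was highest in proneu cells (861 ± 393 TPM, detected in 100% of 22 cells) against 607 ± 331 TPM in Ly6C+GMP, 328 ± 496.5 TPM in preNeu and 324 ± 384 TPM in tpMo cells. Psma8, the alpha subunit of the testis proteasome, was detected in 4 of 47 CMP cells (7.16 TPM, 3.07 TPM without the highest cell) and in 0 of 31 preNeu and 0 of 31 tpMo cells, which by a limit of 3 counts allows a share of up to 9.68% of cells in each (exact 95% upper limit 11.2%). Its longest open reading frame was 74.8% identical to that of Psma7 over aligned bases.

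The 4 non-catalytic beta subunits had their lowest mean in preNeu cells. Psmb2 stood at 706 ± 433 TPM in Ly6C-GMP, 658 ± 321 TPM in proneu and 339.5 ± 260 TPM in preNeu cells. Psmb3, the lowest of the 4 over all labels, averaged 642 ± 303 TPM in Ly6C-GMP cells, 425.6 ± 445 TPM in CMP cells and 219 ± 208 TPM in preNeu cells. Psmb3 also showed the largest mean log2 difference of any member between Ly6C-GMP and CMP cells (2.53), with detection in 100% against 85.1% of cells.

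Psmb8, Psmb9 and Psmb10 replace Psmb5, Psmb6 and Psmb7 in the same positions of the ring. Psmb8 (chromosome 17, 34197721 to 34201454, plus strand of GRCm38) and Psmb9 (chromosome 17, 34181987 to 34187764, minus strand) lie on either side of the peptide transporter gene Tap1, and Psmb10 (chromosome 8, 105935735 to 105938444, minus strand) is on its own. Psmb5 (chromosome 14, 54614119 to 54618022, minus strand), Psmb6 (chromosome 11, 70525367 to 70527858, plus strand) and Psmb7 (chromosome 2, 38588036 to 38644087, minus strand) are unlinked. The longest open reading frames of the pairs were 69% (Psmb8 with Psmb5), 67.5% (Psmb9 with Psmb6) and 64.8% (Psmb10 with Psmb7) identical over aligned bases. Upstream sequences are shown for Psmb8, the most abundant of the immunoproteasome genes, for Psmb5, which it replaces, and for the stretch that Psmb9 shares with Tap1. They are from RefSeq on GRCm38.p6, 5′ to 3′ on the gene's own strand, ending at the base before its RefSeq start site, and capitals mark the motif matches named after them.
Psmb8, chr17:34197945-34198194, plus strand: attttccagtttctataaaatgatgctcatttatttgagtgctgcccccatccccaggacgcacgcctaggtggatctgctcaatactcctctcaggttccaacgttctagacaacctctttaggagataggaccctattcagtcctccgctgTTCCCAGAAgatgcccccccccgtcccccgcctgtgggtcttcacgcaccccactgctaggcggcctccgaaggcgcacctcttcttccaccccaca
Psmb5, chr14:54617996-54618245, minus strand: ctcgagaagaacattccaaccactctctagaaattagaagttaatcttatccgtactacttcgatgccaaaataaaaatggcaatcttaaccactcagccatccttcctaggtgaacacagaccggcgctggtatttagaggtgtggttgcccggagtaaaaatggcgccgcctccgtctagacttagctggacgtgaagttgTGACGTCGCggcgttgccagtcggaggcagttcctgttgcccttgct
Psmb9 to Tap1, chr17:34187331-34187555, minus strand: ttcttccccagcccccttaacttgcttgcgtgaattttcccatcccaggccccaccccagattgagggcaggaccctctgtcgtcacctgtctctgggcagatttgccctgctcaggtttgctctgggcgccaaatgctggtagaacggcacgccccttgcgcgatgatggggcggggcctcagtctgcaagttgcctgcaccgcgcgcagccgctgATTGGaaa

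The capitals in the Psmb8 stretch are TTCCCAGAA, a match to the interferon gamma activated site TTCNNNGAA, 97 bases before the start. Those in Psmb5 are TGACGTCGC, a match to TGACNNNGC, the core bound by the stress factors NRF1 and NRF2, 47 bases before the start, and those next to Psmb9 are the NF-Y box CCAAT on the other strand, 8 bases before the start. Psmb6 held TGACGGAGC just before its start, and the Psmb10 window held none of the motifs searched. Both strands of the 300 bases from 250 before to 50 after each RefSeq start were searched; 40 of the 48 members had such a window. TTCNNNGAA was in those of 3 of 40 members (7.5%; 8.3% of all 32851 windows), and the interferon response core GAAANNGAA in 7 (17.5%; 8.56% of all). TGACNNNGC was in 6 (15%; 12.4% of all) and CCAAT in 13 (32.5%; 37.4% of all). A match is a description of letters and not a shown binding site. The gene model of GENCODE M21 begins further upstream for Psmb8, Psmb5 and Psmb9; that of Psmb9 shares 212 bases with Tap1 on the other strand, and reads from those bases cannot be told apart in a library that does not mark strand.

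Psmb8, whose subunit replaces that of Psmb5, was the most abundant of the 6 in CMP cells and the third in preNeu cells. In CMP cells it averaged 1163 ± 706 TPM (lowest 0, median 1132.5, highest 2717). In Ly6C-GMP cells it averaged 899.7 ± 506 TPM (0, 868 and 2106) and in Ly6C+GMP cells 767 ± 389 TPM (111, 719 and 1778). Proneu cells had 383 ± 269 TPM (0, 385 and 863), preNeu cells 142 ± 261 TPM (0, 3.49 and 1020.4) and tpMo cells 684 ± 428 TPM (0, 602 and 2058.5). The middle of the proneu cells lay below that of the Ly6C+GMP cells, although the ranges overlapped.

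Psmb5 did not follow this order. Its mean was 386 ± 420 TPM in CMP cells (lowest 0, median 265, highest 1367), 563 ± 349 TPM in Ly6C-GMP (0, 527.5 and 1352) and 449 ± 270.5 TPM in Ly6C+GMP cells (0, 398 and 1237). It was 484 ± 464 TPM in proneu (0, 295 and 1759), 171.5 ± 253 TPM in preNeu (0, 3.35 and 1039) and 442 ± 500 TPM in tpMo cells (0, 351 and 2093). Psmb8 made up 75.1% of the summed mean of the pair in CMP cells, 61.5% in Ly6C-GMP, 63% in Ly6C+GMP and 60.7% in tpMo cells. In proneu and preNeu cells Psmb8 was the smaller partner by mean, at 44.2% and 45.3%. By median it was not the smaller, with 385 against 295 TPM in proneu and 3.49 against 3.35 TPM in preNeu cells. Psmb8 exceeded Psmb5 in 36 of 47 CMP, 78 Ly6C+GMP (73 of 95 in run A, 5 of 10 in run C), 9 of 22 proneu, 14 of 31 preNeu and 24 of 31 tpMo cells.

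Pooled over title runs, Psmb10 and its counterpart Psmb7 had near means in CMP, Ly6C-GMP and Ly6C+GMP, but the runs differed: the ratio of Psmb10 to Psmb7 was 1.27 (run B) and 0.659 (run H) for CMP cells, 1.13 and 0.93 in those runs for Ly6C-GMP cells, and 1.02 (run A) and 1.48 (run C) for Ly6C+GMP cells. For Psmb10 the mean was 185 ± 232 TPM in CMP cells (lowest 0, median 42.5, highest 880), then 194 ± 168 TPM in Ly6C-GMP (0, 177 and 690) and 177 ± 116 TPM in Ly6C+GMP cells (0, 173 and 523). It averaged 91 ± 108 TPM in proneu (0, 66.1 and 331.5), 38.4 ± 106 TPM in preNeu (0, 0 and 364) and 180.5 ± 166 TPM in tpMo cells (0, 142 and 523). Psmb7 averaged 180 ± 243, 184 ± 148.5 and 167 ± 129 TPM in CMP, Ly6C-GMP and Ly6C+GMP cells, and 118 ± 130.5, 126 ± 191 and 124 ± 157 TPM in proneu, preNeu and tpMo cells. The Psmb10 share of the pair was 50.7%, 51.3% and 51.4% in the first 3 labels, 59.3% in tpMo cells, 43.5% in proneu cells and 23.3% in preNeu cells. Psmb7 overlaps the kinase gene Nek6 on the other strand over 6571 bases of their gene models.

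Psmb6 was the larger partner of Psmb9 in every label. For Psmb6 the CMP mean was 813.5 ± 501 TPM (lowest 0, median 813.5, highest 2000), 906 ± 468 TPM for Ly6C-GMP cells (202, 834 and 1951) and 572 ± 281 TPM for Ly6C+GMP cells (0, 537 and 1430.0). It averaged 692 ± 383 TPM in proneu (199, 586 and 1783), 457 ± 602 TPM in preNeu (0, 257 and 2677) and 730.4 ± 418 TPM in tpMo cells (0, 719.5 and 1573). For Psmb9 CMP cells had 238 ± 226 TPM (0, 201 and 791), then 206 ± 163 TPM in Ly6C-GMP (0, 185 and 683) and 164 ± 121 TPM in Ly6C+GMP cells (0, 145 and 493). It averaged 116.5 ± 113 TPM in proneu (0, 116 and 408), 74.9 ± 101.8 TPM in preNeu (0, 3.23 and 292) and 174 ± 213.5 TPM in tpMo cells (0, 101.9 and 885.5). Psmb9 made up between 14.1% (preNeu) and 22.6% (CMP) of its pair, and 14.4% in proneu cells.

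**Figure D2:**
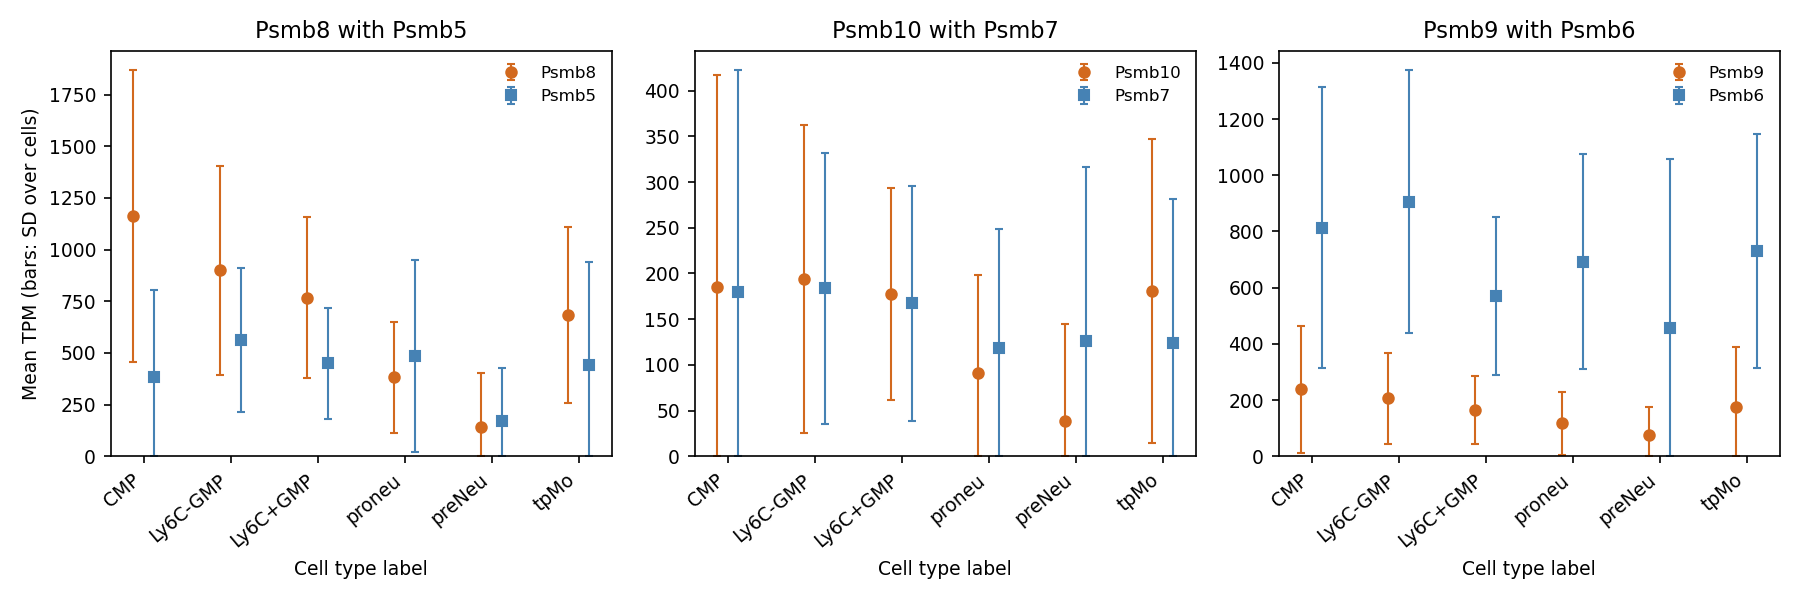
Mean TPM of the 6 catalytic subunits by label, each immunoproteasome subunit (orange circles) beside the subunit it replaces (blue squares); bars are 1 SD over cells, drawn down to 0 at most. Psmb8 lies above Psmb5 in 4 labels and below it in proneu and preNeu cells, while Psmb6 lies above Psmb9 throughout.

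Taking the 3 pairs as one, the immunoproteasome share was the summed mean of Psmb8, Psmb9 and Psmb10 in percent of the sum of all 6 subunits. CMP cells had 53.5%, Ly6C+GMP cells 48.2%, tpMo cells 44.5% and Ly6C-GMP cells 44%. Below these came proneu cells with 31.3% and preNeu cells with 25.3%. Within single cells, where no scaling of the cell changes it, CMP cells averaged 52.2% ± 23.4 (lowest 0, median 53.7, highest 99.7), Ly6C-GMP cells 44% ± 16 (0.522, 44.7 and 78) and Ly6C+GMP cells 48% ± 13.8 (15, 48.9 and 87.2). Proneu cells averaged 30.9% ± 16 (0, 30.6 and 60.5), preNeu cells 32.1% ± 32.9 (0, 21.7 and 100) and tpMo cells 45% ± 17.3 (16.7, 43.2 and 89.7). The order of label values was CMP, Ly6C+GMP, tpMo, Ly6C-GMP, proneu, preNeu, and each step between neighbours was smaller than the SD of either. The step from Ly6C+GMP to proneu, 16.9 points when pooled over title runs, exceeded both their SDs. Within title run C (45.9% and 30.8%) it exceeded the SD of Ly6C+GMP cells (11.1) but not that of proneu cells (16.3).

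More than 50% of the catalytic signal came from immunoproteasome subunits in 28 of 47 CMP, 13 of 45 Ly6C-GMP, 44 of 95 (run A) and 3 of 10 (run C) Ly6C+GMP, 2 of 22 proneu, 6 of 30 preNeu and 11 of 31 tpMo cells. The missing preNeu cell had none of the 6 subunits at any level; it had 1487 detected genes, the fewest of all cells. Within title run C the share was 45.9% in the 10 Ly6C+GMP and 30.8% in the 21 proneu cells. Without Psmb8 and Psmb5, an alternative chosen after the data were seen, the share was 31.6% in Ly6C+GMP, 20.4% in proneu and 16.3% in preNeu cells. Among the 22 proneu cells the share went up with the number of detected genes (Spearman rho 0.504, over cells of 1 label that share runs); in the other labels rho lay between −0.0785 and 0.0883. The part of detection in the proneu share was not tested.

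**Figure D3:**
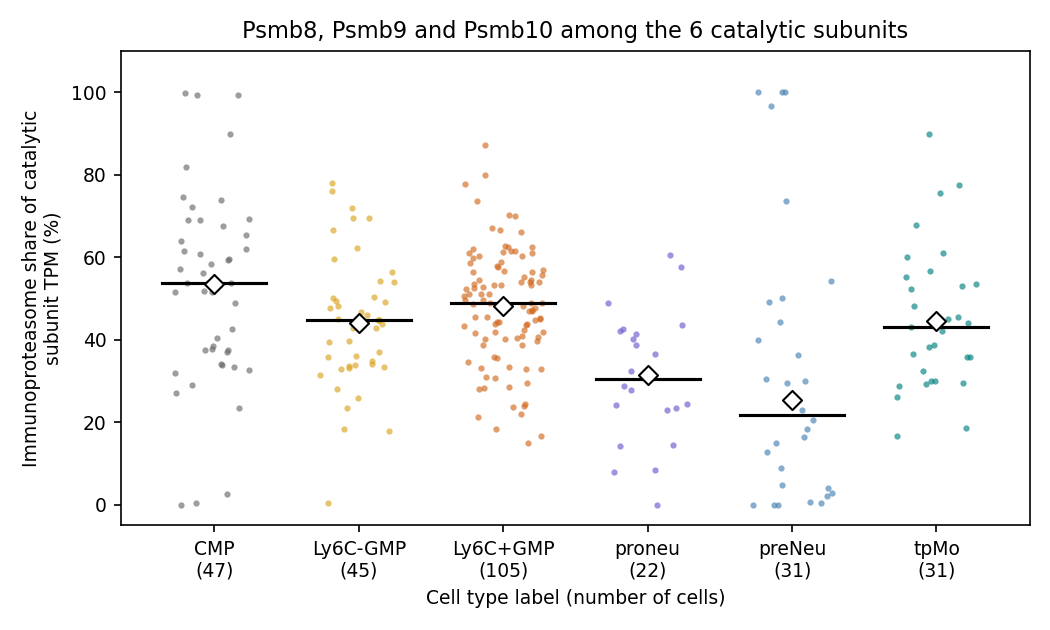
Immunoproteasome share of the TPM of the 6 catalytic subunits in each cell, by label with the number of cells; black lines are medians over cells and white diamonds the share of the label's summed means. Most proneu cells lie below 50%, and preNeu cells spread from 0 to 100%; the preNeu cell with none of the 6 subunits is not drawn.

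Whole sets of catalytic subunits were detected least often in preNeu cells. All 3 immunoproteasome subunits were detected together in 90.5% of Ly6C+GMP cells, 35 of 45 Ly6C-GMP (77.8%), 25 of 47 CMP (53.2%), 13 of 22 proneu (59.1%), 17 of 31 tpMo (54.8%) and 2 of 31 preNeu cells (6.45%). All of Psmb5, Psmb6 and Psmb7 were found in 88.6%, 77.8%, 46.8%, 63.6%, 41.9% and 25.8% of cells of these labels. The median number of detected genes of any kind was 4829, 4514, 3489, 4204, 3082 and 2373 in the same order. The part of overall detection in these shares was not tested. Over cells of a label, the summed immunoproteasome level and the summed level of the other 3 had a Spearman rho between −0.206 (31 tpMo cells) and 0.324 (47 CMP cells).

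The ATPase ring of the regulatory particle was led by Psmc3, with a mean of 504 ± 250 TPM in Ly6C+GMP, 498 ± 320.0 TPM in proneu, 504 ± 409.5 TPM in tpMo and 267.6 ± 374 TPM in preNeu cells. The lowest of the 6 ATPases was Psmc2, with 157 ± 127 TPM in Ly6C+GMP against 98.5 ± 178 TPM in preNeu cells. Psmc6 was the exception of the ring: its mean lay between 245 TPM (Ly6C-GMP) and 314 TPM (tpMo), with 268 TPM in preNeu cells. Psmc4 was lowest in tpMo cells (227 ± 218 TPM, against 376 ± 232 TPM in Ly6C+GMP cells). Of the 11 non-ATPase subunits, Psmd14, which encodes the deubiquitinase of the lid, had the highest average over labels (355 TPM). Psmd14 was 326 ± 368 TPM in preNeu and 302 ± 199 TPM in proneu cells. Psmd3 had the lowest average (87 TPM), with 136 ± 204.5 TPM in CMP and 34.2 ± 86.3 TPM in tpMo cells.

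Summed over subunits, the core particle was 2.11 times the regulatory particle for CMP cells, 2.44 times for Ly6C-GMP, 1.8 times for Ly6C+GMP, 1.78 times for proneu, 1.43 times for preNeu and 2.09 times for tpMo cells. These are ratios of the labels' mean TPM, which corrects for length. Within title run C the ratio was 1.65 in Ly6C+GMP and 1.75 in proneu cells, and it was 1.98 and 2.39 in CMP cells of runs B and H and 2.3 and 2.76 in Ly6C-GMP cells of those runs. Single preNeu cells ran from 0.00563 to 182, so that the preNeu ratio describes a mean over very unequal cells. Core and regulatory sums had a Spearman rho of 0.497 over the Ly6C+GMP cells, 0.301 over 45 Ly6C-GMP and 0.172 over 47 CMP cells, and between −0.0638 and 0.0681 in the other 3 labels.

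Assembly chaperones differed from one another in level. Of those that build the base of the regulatory particle, Psmd5 averaged 239 ± 322 TPM in proneu, 175 ± 143 TPM in Ly6C+GMP, 92.6 ± 133 TPM in tpMo and 89.3 ± 231 TPM in preNeu cells, and Psmd9 at most 26.6 ± 51 TPM (proneu; 4.22 TPM in preNeu cells). Of the chaperones of the core, Psmg1 was at 257 ± 294 TPM in proneu cells, 189 ± 161 TPM in Ly6C+GMP cells, 67.6 ± 165 TPM in tpMo cells and 20.2 ± 81.9 TPM in preNeu cells (6.81 TPM without the highest cell). Psmg1 was detected in 15 of 22 proneu cells (68.2%, exact 95% interval 45.1 to 86.1%) and in 5 of 31 preNeu cells (16.1%, 5.45 to 33.7%). Psmg4 stood at 39.9 ± 69.2 TPM in Ly6C-GMP and at 11.2 ± 14.3 TPM in proneu cells, and was found in 0 of 31 preNeu cells, which by the limit of 3 counts allows up to 9.68% of cells (exact upper limit 11.2%). Exact (Clopper-Pearson) intervals and such limits cover counting error only. Psmg2 differed less: 110 ± 199.6 TPM in proneu, 87.6 ± 189 TPM in preNeu and 89.8 ± 233 TPM in tpMo cells. The maturation factor Pomp, which is no member by symbol, averaged 197.8 ± 149 TPM in proneu, 73.3 ± 98.2 TPM in preNeu and 416.5 ± 329 TPM in tpMo cells.

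Psme1 and Psme2 encode the subunits of PA28, an interferon-inducible cap that often accompanies the immunoproteasome. Psme1 averaged 471 ± 361 TPM in CMP (lowest 0, median 402, highest 1480.3), 363 ± 205 TPM in Ly6C-GMP, 303 ± 177 TPM in Ly6C+GMP, 282 ± 239 TPM in proneu, 86.2 ± 157 TPM in preNeu and 249 ± 235 TPM in tpMo cells. From highest to lowest the Psme1 means ran CMP, Ly6C-GMP, Ly6C+GMP, proneu, tpMo, preNeu, and those of Psmb8 likewise but with tpMo above proneu. Psme2 was highest in Ly6C-GMP cells (461 ± 239 TPM) and lowest in preNeu cells (164 ± 215 TPM). Psme1 and Psme2 together stood at 665 TPM in Ly6C+GMP and 579 TPM in proneu cells, a smaller step than that of the 3 immunoproteasome subunits (1108 and 590.2 TPM). Within title run C it went the other way, with 497.5 ± 315 TPM in Ly6C+GMP and 565 ± 382 TPM in proneu cells, while the immunoproteasome subunits stood at 982 ± 449 and 568 ± 363 TPM. Psme3, which encodes a nuclear cap, was lowest in tpMo cells (11.3 ± 35.7 TPM, found in 4 of 31) and stood at 43 ± 63.3 TPM in Ly6C+GMP cells. Psme4 was low in every label, at 25.1 ± 54.1 TPM in proneu cells (15.2 TPM without the highest) and less elsewhere. The inhibitor gene Psmf1 was found in 16 of 47 CMP cells, at 112 ± 223 TPM, with 44.8 ± 93 TPM among Ly6C-GMP cells.

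Psme2b was recorded with no role among these groups. It was highest in tpMo cells at 50.2 ± 146 TPM, from 7 of 31 cells (27.7 TPM without the highest cell), and averaged 14.6 TPM or less in the other labels. Its longest open reading frame was 99.3% identical to that of Psme2, 715 of 720 bases, so the division of reads between the pair by the authors' estimate is uncertain.

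**Figure D4:**
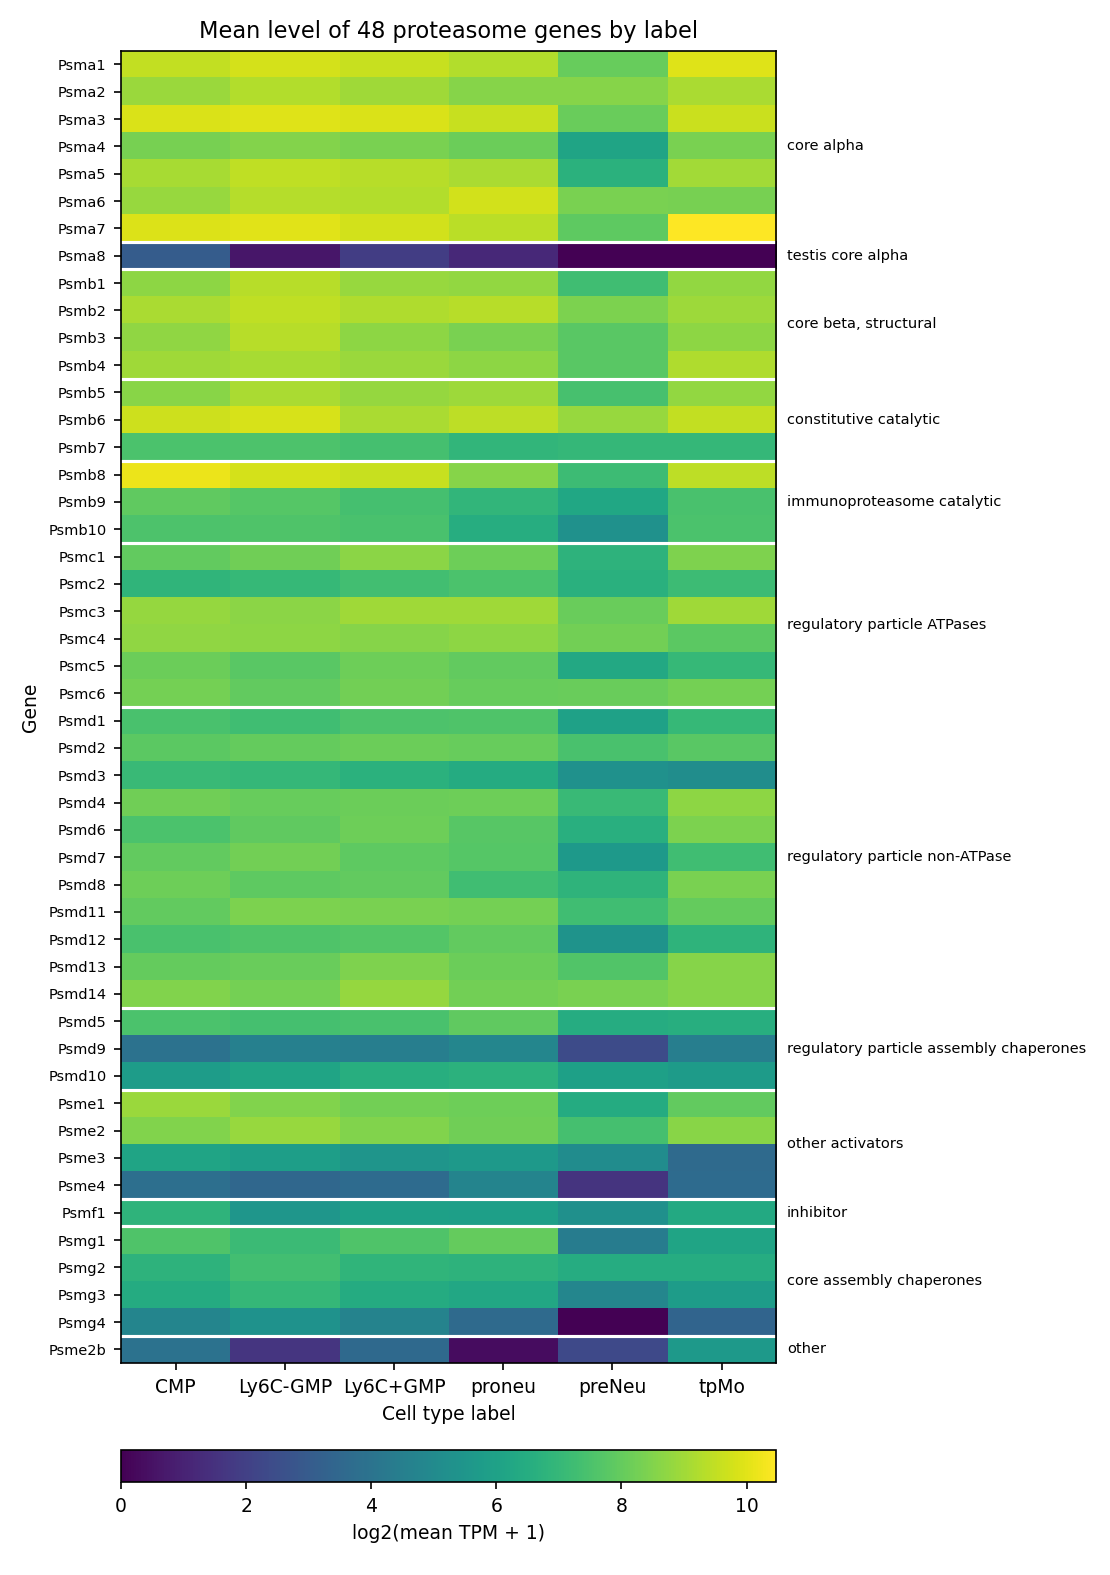
Mean level of each of the 48 genes in the 6 labels as log2(mean TPM + 1), in rows by role. The preNeu column is the darkest in 38 of the 48 rows, with tpMo as dark for Psma8, and Psmc6 stays between 245 and 314 TPM in every label.

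In all, 38 of the 48 genes had their lowest label mean of deposited TPM in preNeu cells, with Psma8 at 0 in tpMo cells as well. The other 10 were Psma2, Psmb7 and Psmd14, lowest in proneu cells at 378, 118 and 302 TPM, Psme2b, also lowest in proneu cells, Psmc6, lowest in Ly6C-GMP cells, and Psma6, Psmc4, Psmd10, Psmd3 and Psme3, lowest in tpMo cells. Ly6C-GMP cells held the highest mean of 17 genes, proneu and tpMo cells of 9 each, CMP cells of 8, Ly6C+GMP cells of 5 and preNeu cells of 0. The share of all genes lowest or highest in a label was not counted. Against proneu cells, 39.8% of all genes were lower in preNeu cells by at least 1 log2 unit, as were 72.5% of those of at least 100 TPM. A median of 22 of the 48 genes was detected in a preNeu cell, 32 in a tpMo, 34 in a CMP, 39 in a proneu, 40 in a Ly6C-GMP and 41 in a Ly6C+GMP cell. Over all genes the medians were 2373, 3082, 3489, 4204, 4514 and 4829 detected in the same order of labels. The part of overall detection in the member counts was not tested.

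For the comparisons, each gene's difference was taken between cell averages of log2(TPM + 1), among genes that averaged 1 TPM or more in at least 1 of the labels, and a call of higher or lower needed at least 1 log2 unit. This difference weighs cells in which a gene is not found, so the log2 ratio of mean TPM stands beside it. The 6 comparisons share labels and are not independent of each other.

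Between Ly6C-GMP and CMP cells, 26 of 48 members were called higher, against 15.6% of all genes, and 0 lower, against 1.29%. The median difference of members was 1.01, beside 0.19 for all 12582 genes. The largest were Psmb3 (2.53) and Psmb5 (2.50; 563 against 386 TPM), and the lowest, among members of at least 20 TPM in either label, were Psmf1 (−0.41) and Psmb8 (−0.24). As a ratio of mean TPM, the median of members was 0.10 and that of all genes −0.20, with 0 members higher and 3 lower by 1 log2 unit, beside 14.8% and 22.6% of all genes. Pooled over runs, all 4 structural beta and all 7 alpha subunits were higher on average in Ly6C-GMP cells. The pooled structural beta sum was 1.34 times, the alpha sum 1.17 times and the immunoproteasome sum 0.819 times the CMP sum. The runs differed: alpha sums were 5254 against 4172.5 TPM in run B and 5087 against 4937 TPM in run H. Structural beta sums were 2376 against 1866 TPM (B) and 2905 against 1994 TPM (H). Immunoproteasome sums were 1370 against 1522 TPM (B) and 1158 against 1710 TPM (H). The sum of all members was 17041 against 14906 TPM in run B, but 16160 against 16391 TPM in run H. Within run B the median difference was 1.27 (30 higher, 0 lower, beside 20.6% and 2.34% of all genes) and within run H 0.72 (17 higher and 3 lower of 46, beside 18.4% and 7.51%). Among genes with a mean of at least 100 TPM, a limit chosen after the data were seen, 26 of 41 members and 42% of all genes were higher.

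Ly6C+GMP cells differed little from Ly6C-GMP cells in these genes, and label and title run cannot be told apart here. Of 48 members 7 were called higher (9.87% of all genes) and 0 lower (1.35%), with a median difference of 0.19 beside 0.12 for all genes. Among genes of at least 100 TPM, 6 of 40 members and 25.1% of all genes were higher, with medians of 0.28 and 0.41. As a log2 ratio of mean TPM the median of members was −0.097, with 2 members higher and 0 lower, beside 12.8% and 12.2% of all genes. Psmd10, which encodes the chaperone gankyrin, had the largest difference (1.73; 93.5 against 67.5 TPM), followed by Psmd14 (1.598; 448 against 314 TPM). Psmb3 (−0.71; 407.5 against 642 TPM) and Psmb6 (−0.705; 572 against 906 TPM) had the lowest. Core and ATPase subunits went apart on mean TPM. The sums of alpha, structural beta and the 3 constitutive catalytic subunits were 0.898, 0.758 and 0.719 times the Ly6C-GMP sums. The ATPase sum was 1.19 times that of Ly6C-GMP cells. The non-ATPase sum was 1.09 times when pooled, but Ly6C-GMP cells differed by title run: 2941 TPM (B, 30 cells) against 2200 TPM (H, 15 cells). Ly6C+GMP cells, at 2936 TPM (A) and 2884.5 TPM (C), were not above the run B cells.

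Pooled over title runs, proneu cells had lower levels of the 3 immunoproteasome subunits than Ly6C+GMP cells, though within run C Psmb9 was not lower. Of the 48 members 14 were called lower, against 15.9% of all genes, and 0 higher, against 2.2%. Among genes of at least 100 TPM the count was nearer to the background, with 13 of 40 members and 30.7% of all genes lower. Those 14 included all 3 immunoproteasome subunits: Psmb10 (−2.60; 91 against 177 TPM), Psmb8 (−1.75; 383 against 767 TPM) and Psmb9 (−1.29; 116.5 against 164 TPM). Of the other roles 3 of 6 ATPase, 2 of 11 non-ATPase, 1 of 7 alpha, 1 of 4 structural beta and 1 of 3 constitutive catalytic subunits were called lower, with 2 of 4 chaperones of the core and 1 of 4 activators. The summed immunoproteasome level was 0.532 times that of Ly6C+GMP cells, while the sum of Psmb5, Psmb6 and Psmb7 was 1.09 times and that of all members without the immunoproteasome 0.929 times. Psma6 had the highest difference (0.73), then Psme4 (0.56). The median over members was −0.58, beside −0.23 for all genes, and as a ratio of mean TPM it was −0.18 beside −0.18.

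With cells of title run C alone, 21 proneu against 10 Ly6C+GMP cells, the median over members was −0.60, beside −0.27 for all genes, with 16 lower and 2 higher of 47, beside 21.2% and 5.49% of all genes. Psmb8 was 360 against 671 TPM and Psmb10 95.3 against 214 TPM in that run. Psmb9 was not lower there: its means were 113 and 96.6 TPM, a log2 difference of 0.29. Median detected genes were 4204 in proneu and 4829 in Ly6C+GMP cells, and the part of detection in these differences was not tested.

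Between preNeu and proneu cells 44 of 48 members were called lower, against 39.8% of all genes, and 0 higher, against 3.58%. The median difference was −3.01, beside −0.68 for all 10991 genes. Among members that averaged 100 TPM or more in at least 1 of the labels 36 of 38 were lower, as were 72.5% of all such genes. As a ratio of mean TPM, the median of members was −1.14 and that of all genes −0.86, with 27 members lower and 1 higher, beside 46.9% and 17.2% of all genes. The lowest were Psma5 (−5.99; 102.6 ± 191 against 557 ± 254 TPM, detected in 45.2% against 95.5% of cells) and Psma4 (−5.81; 68.6 against 279.7 TPM). The members that differed least among those of at least 20 TPM in either label were Psmc6 (−0.80; 268 against 263 TPM) and Psmg2 (−0.98; 87.6 against 110 TPM). By role, the preNeu sum was 0.297 times the proneu sum for the chaperones of the core, 0.398 for alpha subunits, 0.433 for immunoproteasome subunits, 0.504 for structural beta subunits, 0.546 for non-ATPase subunits, 0.583 for constitutive catalytic subunits and 0.595 for ATPases. Under median-ratio scaling 43 members were called lower, beside 34.3% of all genes, with a median of −2.55 beside −0.53 for all genes, although the mean of the summed level came to 0.926 times; preNeu cells had a median of 2373 detected genes against 4204, and the part of detection in these differences was not tested.

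tpMo cells had a summed level 0.963 times that of Ly6C+GMP cells as deposited, and 1.095 times under median-ratio scaling (13096 against 11964). Single members were mostly found in fewer tpMo cells. Of 48 members 35 were called lower, against 32.9% of all genes, and 0 higher, against 3.19%. The median difference was −1.47, beside −0.50 for all genes; as a ratio of mean TPM it was −0.17 beside −0.27, with 6 lower and 1 higher, beside 31.3% and 15.7% of all genes. Among genes of at least 100 TPM, 30 of 39 members and 56% of all genes were lower, with medians of −1.49 and −1.25. Psmg1 (−4.445; 67.6 against 189 TPM) and Psmc5 (−4.39; 127 against 289 TPM) had the lowest differences, and Psme2b (0.74) and Psma7 (0.72; 1420 against 871 TPM) the highest. The sums of both groups of assembly chaperones were 0.533 (core) and 0.573 (regulatory particle) times those of Ly6C+GMP cells, the ATPase sum was 0.823 times and the alpha sum 1.06 times. Within run C the median was −1.70, beside −0.59 for all genes, with 31 lower and 2 higher of 47, beside 36.9% and 5.89% of all genes. Median detected genes were 3082 in tpMo cells.

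Between tpMo and preNeu cells, all of title run C, 34 of 47 members were called higher, against 26.3% of all genes, and 0 lower, against 4.53%. The median difference was 1.52, beside 0.36 for all genes, and 1.21 beside 0.80 as a ratio of mean TPM, where 26 were higher and 1 lower, beside 45.6% and 17.8% of all genes. Among genes of at least 100 TPM, 28 of 35 members and 64% of all genes were higher. The immunoproteasome sum was 4.06 times and the alpha sum 3 times that of preNeu cells, against 1.48 times for ATPases and 1.07 times for the chaperones of the regulatory particle. Psmb8 had the largest difference (5.29; 684 against 142 TPM), followed by Psma5 (5.12; 518 against 102.6 TPM). Psma6 stood at 324 and 328 TPM, a ratio of 0.987, and Psmb7 at 124 and 126 TPM. The summed level of all members was 2.2 times that of preNeu cells as deposited and 1.25 times under median-ratio scaling.

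**Figure D5:**
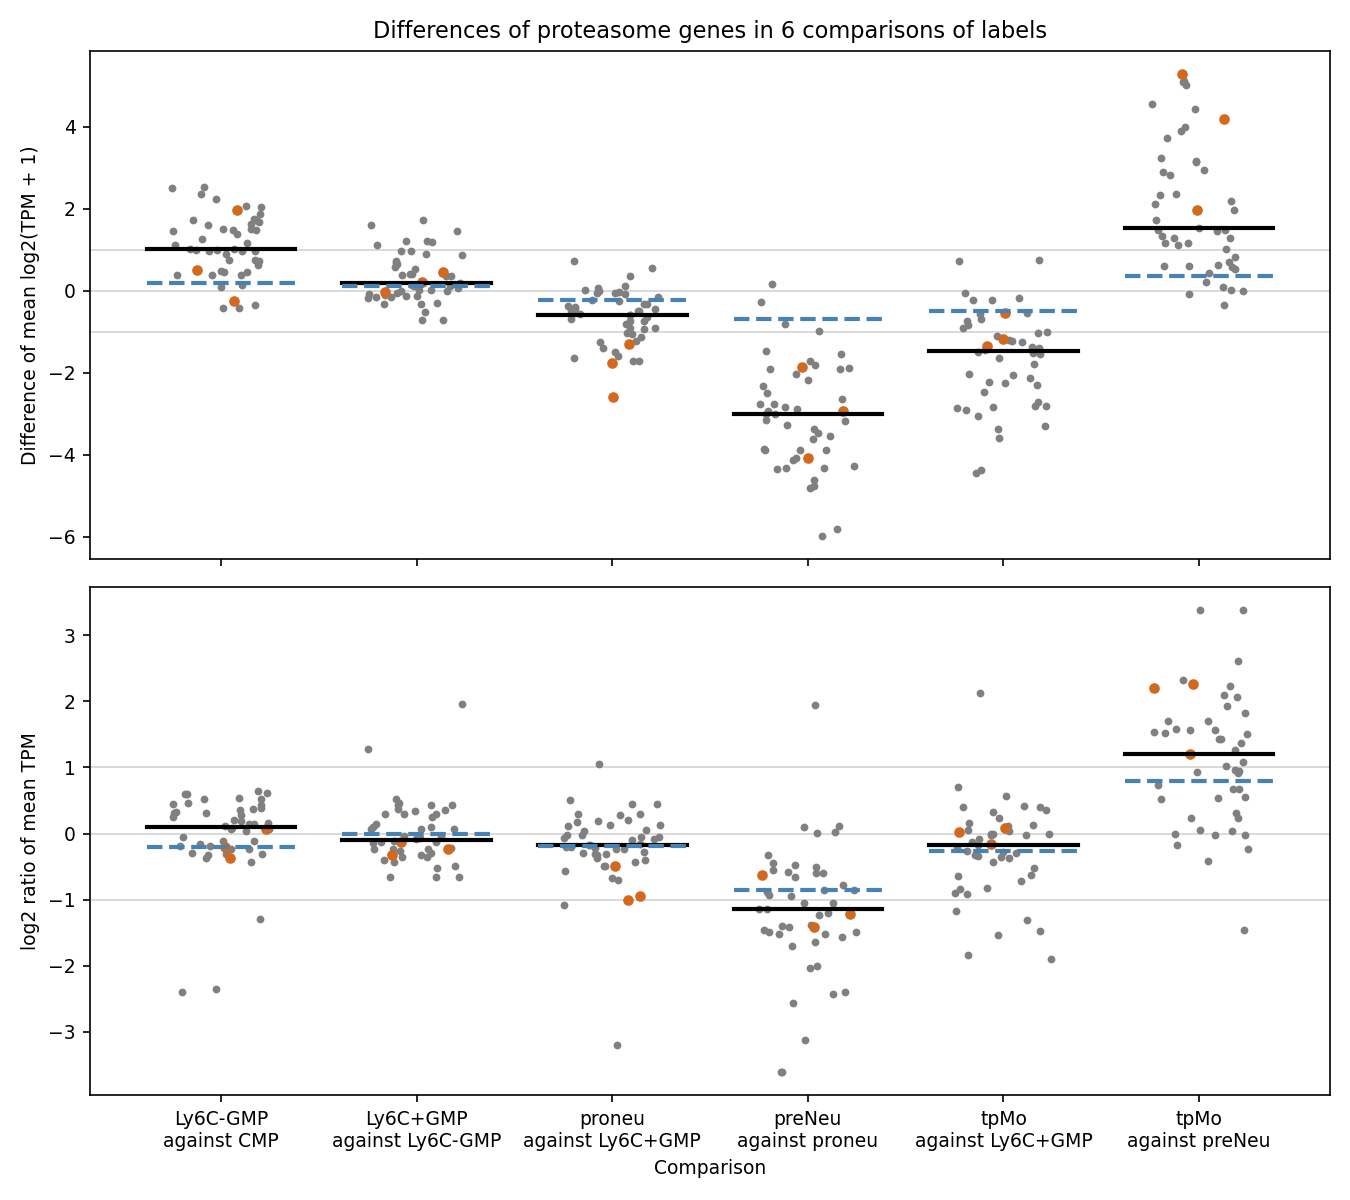
Difference of each proteasome gene in the 6 comparisons, as difference of mean log2(TPM + 1) (top) and log2 ratio of mean TPM (bottom); points are genes, orange for Psmb8, Psmb9 and Psmb10, black lines the median of the members and dashed blue lines the median of all genes, with grey lines at −1, 0 and 1. The preNeu against proneu members have a median of −3.01 at the top and −1.14 at the bottom.

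Genes around the proteasome were read from lists. Among 20 partners outside the symbol rule, such as Pomp, the ubiquitin receptor Adrm1 and the segregase Vcp, 5 were higher and 0 lower in Ly6C-GMP against CMP cells, 0 higher and 5 of 19 lower in proneu against Ly6C+GMP cells, and 0 higher and 11 lower in preNeu against proneu cells, with list medians of 0.68, −0.56 and −1.04. Over all genes 15.6% were higher in the first of these comparisons, and 15.9% and 39.8% lower in the others, with medians of 0.19, −0.23 and −0.68. Vcp averaged 296 ± 172 TPM in proneu and 109 ± 266.5 TPM in preNeu cells, and Adrm1 157 ± 129 and 124 ± 217 TPM. Of 6 ubiquitin genes 5 were lower in preNeu than in proneu cells (median −2.04), beside 39.8% of all genes and 72.5% of those of at least 100 TPM. Ubb, the most abundant, stood at 4951 ± 2483 TPM in proneu and 5882 ± 3033 TPM in preNeu cells and was within 1 log2 unit.

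The 10 genes of MHC class I antigen processing, which use the peptides that immunoproteasomes cut, had list medians of 0.05 in Ly6C-GMP against CMP (4 higher, 2 lower), −0.28 in proneu against Ly6C+GMP (0 higher, 3 lower) and −2.36 in preNeu against proneu cells (0 higher, 8 lower). The medians of all genes were 0.19, −0.23 and −0.68. In the first comparison 15.6% of all genes were higher and 1.29% lower. In the last 2 comparisons 15.9% and 39.8% of all genes were lower, and 30.7% and 72.5% of those of at least 100 TPM. Tap1, which shares its upstream stretch with Psmb9, averaged 218 ± 321 TPM in CMP cells, 70.2 ± 75.6 TPM in Ly6C-GMP, 69.7 ± 86.8 TPM in Ly6C+GMP, 45 ± 69.2 TPM in proneu, 37 ± 92.1 TPM in preNeu and 65.1 ± 119 TPM in tpMo cells. Tap1 and Psmb9 both had their highest mean in CMP and their lowest in preNeu cells; the CMP mean was 3.1 times that of Ly6C-GMP cells for Tap1 and 1.16 times for Psmb9. B2m, the light chain of class I, was above 0 in every cell and averaged 1842 ± 902 TPM in proneu and 1760 ± 904 TPM in preNeu cells. Of the interferon response genes, 0 of 12 were higher and 2 lower in proneu against Ly6C+GMP cells (Irf1, −1.35, and Bst2, −1.28), with a median of −0.49, beside 15.9% of all genes lower. Over cells, the immunoproteasome sum and the summed interferon genes had a Spearman rho between −0.0819 (22 proneu cells) and 0.341 (31 preNeu cells).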

How the data were processed

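RNA of sorted single cells was extracted with picopure buffer and made into cDNA by SMART-seq2, a method that covers whole transcripts, with Nextera XT at reduced volume, and sequenced in pairs on a HiSeq 4000, per the labels' protocols. The authors deposited 1 table of TPM values for all 281 cells; RSEM 1.2.19 and GRCm38 are named in the submitters' processing notes. No aligner, gene model or cell filter is given in the sources used here. As a unit, TPM keeps no read depth, so only the number of genes at 1 TPM or more stands for it, and an abundant transcript lowers the value of the others.

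From the table, means, SDs over cells, differences of mean log2(TPM + 1) and ratios of mean TPM were computed with Python 3.11.15, numpy 2.4.6 and pandas 2.3.3 for the 6 comparisons named in the report, over all genes with a mean of at least 1 TPM. No test was run, as each label is 1 sample. Of the functions, that for the difference of mean log2(TPM + 1) was tested on simulated data. The members, gene lists and comparisons were chosen with earlier results of these data known. In full were named the 6 catalytic subunits, the highest and lowest member of each role, and per comparison the 2 members furthest each way with at least 20 TPM, with up to 2 genes of each related list and Pomp, Adrm1 and Tap1; other members were named where they make up a count of exceptions. Promoter windows are from RefSeq on GRCm38.p6 and gene positions from GENCODE M21, counted from 1. Open reading frames were the longest from ATG to stop in a protein-coding transcript of GENCODE M21, aligned with Biopython 1.88.

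Other settings tried were a pseudocount of 10 or 0.1 TPM, no filter, filters at 10 and 100 TPM, the ratio of mean TPM, both scalings, single title runs, detection at 10 TPM or above 0, and the share without its highest cell or without 1 pair. In 12 members the gene model overlaps another protein-coding gene, and the library does not mark strand.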

Additional observations from a re-analysis of the deposited data

How the results depend on the processing

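Each label is 1 sample without named animals, read depth is unknown, and low members rest on few cells. No paired analysis was possible because samples are single cells with no pairing across labels. As log2 ratios of mean TPM, calls higher and lower were 0 and 3 for Ly6C-GMP against CMP (all genes 14.8% and 22.6%). They were 2 and 0 for Ly6C+GMP against Ly6C-GMP (12.8% and 12.2%), and 1 and 3 for proneu against Ly6C+GMP (10.6% and 24.2%). For preNeu against proneu they were 1 and 27 (17.2% and 46.9%, median −1.14). For tpMo they were 1 and 6 against Ly6C+GMP (15.7% and 31.3%), and 26 and 1 against preNeu (45.6% and 17.8%). On that scale Psmb7 turned to 0.092 in preNeu against proneu, and Psmb10 to 0.027 and Psmb9 to 0.084 in tpMo against Ly6C+GMP. With a pseudocount of 10 TPM, 12 members were higher in Ly6C-GMP against CMP (4.25% of all genes) and 1 in Ly6C+GMP against Ly6C-GMP (1.95%). At that pseudocount 4 were lower in proneu (3.67% of all genes) and 21 in tpMo (13.05%) against Ly6C+GMP. With 0.1 TPM, 11 were higher in Ly6C+GMP against Ly6C-GMP, beside 20.1% of all genes. In run H alone, 17 were higher and 3 lower in Ly6C-GMP against CMP, beside 18.4% and 7.51% of all genes. With Ly6C+GMP cells of run C only, 2 were lower against Ly6C-GMP (6.64% of all genes), and 2 each were higher in proneu (5.37%) and in tpMo (5.89%). There Psmb9 turned to 0.40 in proneu (0.29 within the run) and 0.50 in tpMo; the cause was not tested. Median-ratio scaling gave summed levels of 11477 (CMP), 11649 (Ly6C-GMP), 11964 (Ly6C+GMP), 11344 (proneu), 10504 (preNeu) and 13096 (tpMo). Removing abundant genes gave 17759 for CMP cells, 20093 for Ly6C-GMP, 18825 for Ly6C+GMP, 17884 for proneu, 11002 for preNeu and 18067 for tpMo cells. CMP cells then lay below proneu and tpMo cells, while as deposited they lay above both. Without Psmb8 and Psmb5, chosen after the data were seen, the immunoproteasome share was 29.9% in CMP, 26.8% in Ly6C-GMP and 31.6% in Ly6C+GMP cells; the other 28 alternatives left each label's share within 1 SD. The median difference of members had the same sign under every setting run, with ranges such as −4.17 to −1.14 for preNeu against proneu and 0.098 to 1.52 for Ly6C-GMP against CMP, except in Ly6C+GMP against Ly6C-GMP, where it was −0.097 as a log2 ratio and up to 0.35 otherwise.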
